A study of Mus musculus with 6 samples.

Results

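Transcripts of the NALCN sodium leak channel complex were compared in 6 mouse brain tumor libraries. The set holds 4 genes of the 24537 rows of the count table, Fam155a, Nalcn, Unc79 and Unc80. Fam155a was chosen by its measured difference between the groups in these same counts, and the other 3 entered as the gene's partners in the complex, to ask whether they follow it. All 4 were among the 13101 genes that passed the filter on low counts, and Fam155a passed it through the group in which it is high.

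The tumors arose after in utero electroporation, where an electric pulse carries DNA into cells of the embryonic mouse brain. Per the titles, 3 libraries came from tumors with FOXR2, a forkhead transcription factor, beside mutant Pdgfra (PdgfraD482V) and dominant-negative p53 (DNp53). The other 3, titled Control, carried the same mutant Pdgfra and DNp53 without FOXR2. All were CD-1 IGS mice. The labels give no age, no construct promoter and do not say that each tumor is from another animal, and the p-values measure the spread between these libraries.

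NALCN is the pore of a sodium leak channel, related in build to the voltage-gated sodium and calcium channels. It passes a small inward current at rest that brings neurons nearer to their firing threshold. FAM155A (also called NALF1) sits over the outer mouth of the pore, while UNC79 and UNC80 are very large proteins on its inner side, and UNC80 links UNC79 to the pore. In cells that lack the channel, current is obtained when the 4 proteins are expressed together. Mice without Nalcn or Unc79 die soon after birth.

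Depth ranged from 13429489 to 17927025 counts, and 3 counts corresponded to 0.174 to 0.219 CPM, the count of a gene per library total on a common scale with TMM factors. Values of a group are listed in the order of replicates 1, 2 and 3. A sample sheet deposited with the counts puts 6 of 6 libraries in the group opposite to their titles. Groups are those of the titles throughout, and every direction turns round if the sheet is right. Foxr2, counted under its mouse symbol, gave 22, 1 and 7 counts over the FOXR2-titled libraries, against 4, 10 and 7 over the Control-titled ones (p = 0.8 by an exact permutation test, two-sided, n = 3 each, with 0.1 as its lowest possible value). These counts cannot settle the labels. Titles do not give the species of the FOXR2 construct, so its reads may not be counted under the mouse symbol. Markers of glial precursors were abundant in all 6 libraries, with 9 of them summing to 4426 to 5902 CPM in FOXR2-titled tumors and 2860 to 4159 CPM in Control-titled tumors. FOXR2 replicate 2 stood apart in microglia and macrophage markers, whose 14 genes summed to 1341 CPM there, to 4.89 and 5.11 CPM in FOXR2 replicates 1 and 3, and to 9.77 to 14.3 CPM in Control-titled tumors.

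Fam155a, the auxiliary subunit, was near the limit of detection in Control-titled tumors and at the level of a mid-range gene in those titled FOXR2. It had 862, 520 and 716 counts over the FOXR2-titled libraries, or 56.2, 32.9 and 52.2 CPM. Control replicates 1, 2 and 3 held 10, 3 and 20 counts, or 0.600, 0.179 and 1.16 CPM. The lowest FOXR2-titled library was thus far above the highest titled Control. The means were 47.1 ± 12.5 CPM in FOXR2-titled tumors and 0.647 ± 0.493 CPM in Control-titled tumors (SD, n = 3 each), a ratio of 72.9. The 3 counts of Control replicate 2 carry an exact Poisson interval of 0.619 to 8.77 counts, which covers counting error only. The fitted log2 fold change was 6.17 ± 0.60 (SE), the place 7 among tested genes from high to low. This difference chose the gene and is given with no test.

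**Figure D1:**
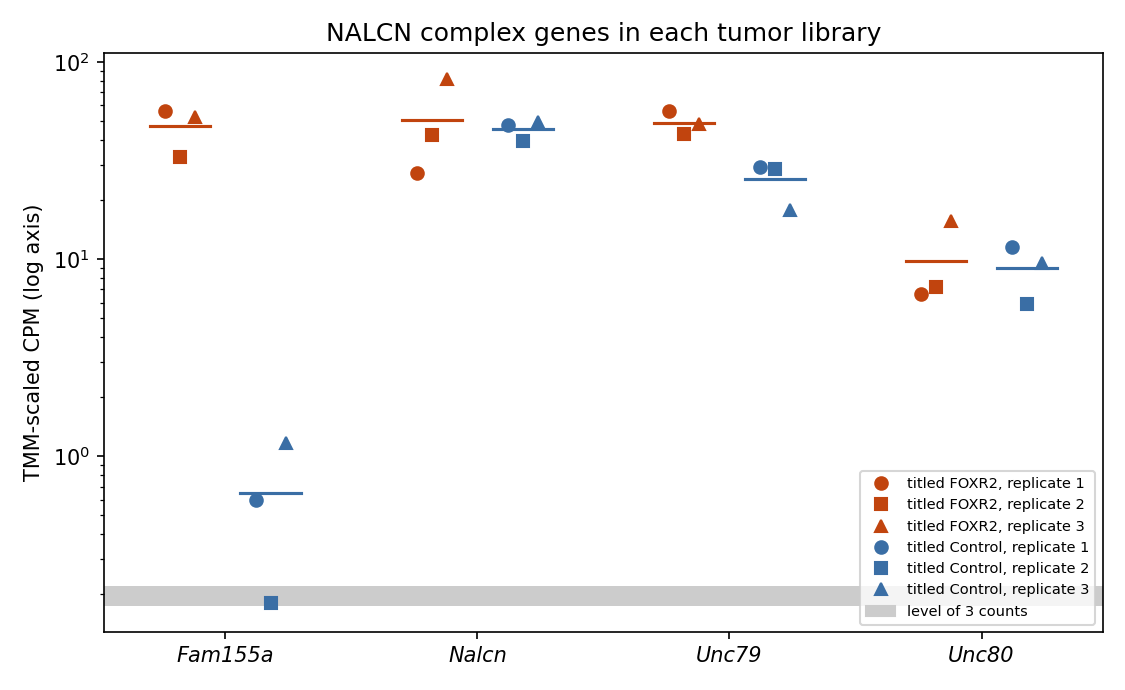
Level of the 4 complex genes in each library, as TMM-scaled CPM on a log axis; points are libraries, short lines are group means over 3 libraries, and the grey band is the level of 3 counts. Fam155a lies at 32.9 to 56.2 CPM in FOXR2-titled tumors and at 0.179 to 1.16 CPM in Control-titled tumors, while Nalcn and Unc80 overlap between the groups.

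Among tested genes, 64.9% had a lower mean than Fam155a in FOXR2-titled tumors, and 2.15% did in Control-titled tumors. Nalcn kept almost the same place, above 66.8% of tested genes in FOXR2-titled tumors and above 63.6% in Control-titled tumors. Library sex, read from Xist and Y-linked genes, differed within both groups. FOXR2 replicates 1 and 3, from male animals, had Fam155a levels of 56.2 and 52.2 CPM, and the male Control replicate 1 had 0.600 CPM. The female FOXR2 replicate 2 had 32.9 CPM, and the female Control replicates 2 and 3 had 0.179 and 1.16 CPM.

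Fitted changes of the partners are given beside that of Fam155a, and their difference from it was not tested. Nalcn, the pore, was expressed in every library at 27.3, 42.3 and 81.4 CPM over the FOXR2-titled libraries, against 47.7, 39.7 and 49.4 CPM over the Control-titled ones. Its lowest and its highest library were both titled FOXR2, so the groups overlapped. The means were 50.4 ± 27.9 CPM in FOXR2-titled tumors and 45.6 ± 5.19 CPM in Control-titled tumors (SD, n = 3 each). The log2 fold change was 0.14 ± 0.38 (edgeR quasi-likelihood test, Benjamini-Hochberg adjusted p = 0.843), with a 95% interval of -0.74 to 1.03. Without FOXR2 replicate 3 the value for Nalcn was -0.39 (adjusted p = 0.453).

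Unc80, the large scaffold that joins UNC79 to the pore, gave the same picture at a lower level. It had 6.66, 7.21 and 15.5 CPM over the FOXR2-titled libraries, against 11.5, 5.90 and 9.53 CPM over the Control-titled ones. The groups overlapped again, and FOXR2 replicate 3 was again the highest library. Means of 9.80 ± 4.98 CPM in FOXR2-titled tumors and 8.98 ± 2.85 CPM in Control-titled tumors (SD, n = 3 each) gave a fitted log2 change of 0.13 ± 0.44 (edgeR adjusted p = 0.883; 95% interval -0.90 to 1.15). Without FOXR2 replicate 3 the value was -0.37 (adjusted p = 0.642), and without Control replicate 2 it was -0.094 (adjusted p = 0.940).

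Unc79, the other large cytoplasmic protein, was the partner with a difference in the direction of Fam155a, and that difference missed the threshold. It stood at 55.9, 42.8 and 48.1 CPM over the FOXR2-titled libraries. Control replicates 1, 2 and 3 held 29.4, 28.7 and 17.7 CPM, so every FOXR2-titled library lay above every Control-titled library. The means were 48.9 ± 6.61 CPM in FOXR2-titled tumors and 25.3 ± 6.55 CPM in Control-titled tumors (SD, n = 3 each). Its log2 fold change was 0.95 ± 0.25 (edgeR adjusted p = 0.0806; 95% interval 0.37 to 1.53). Groups lay apart in 30.3% of all tested genes, with FOXR2 higher in 13.1% and lower in 17.2%, so the separation of Unc79 is a common one in this table. With DESeq2 in place of edgeR the value was 0.97 (adjusted p = 0.0144), and DESeq2 called 14.0% of all tested genes.

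Of the 3 partners, edgeR called 0 at an adjusted p under 0.05, where it called 2.29% of all tested genes (0.908% higher and 1.38% lower in FOXR2-titled tumors). At an unadjusted p under 0.05 it counted 1 (Unc79), against 24.9% of all tested genes, while DESeq2 called 1 (Unc79) and limma-voom 0. Whether the change of Unc79 differs from those of the other partners was tested with the log2 ratio of their levels in each library. The ratio of Unc79 to Nalcn differed by 0.961 between the titles (exact two-sided permutation p = 0.3), that of Unc79 to Unc80 by 0.900 (exact p = 0.2) and that of Unc80 to Nalcn by 0.0616 (exact p = 0.8). Adjusted over these 3 pairs the values were 0.45, 0.45 and 0.8, and 0.1 is the smallest p that 3 against 3 libraries allow.

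Scaled to transcript length, the order of the genes within a tumor differed between the titles. Levels were divided by the longest coding transcript in GENCODE M21, which is 3388 bases for Fam155a, 7122 for Nalcn, 8874 for Unc79 and 13613 for Unc80. In CPM per kilobase, FOXR2-titled tumors held 13.9 ± 3.69 of Fam155a, 7.07 ± 3.92 of Nalcn, 5.51 ± 0.745 of Unc79 and 0.720 ± 0.366 of Unc80 (SD, n = 3). Control-titled tumors held 0.191 ± 0.146 of Fam155a, 6.40 ± 0.729 of Nalcn, 2.85 ± 0.738 of Unc79 and 0.660 ± 0.209 of Unc80 (SD, n = 3). Fam155a was thus the highest of the 4 in each FOXR2-titled library and the lowest in each titled Control, which rests on the difference that chose it. Nalcn and Unc79 did not keep an order in FOXR2-titled tumors, where Unc79 was the higher in replicate 1 (6.30 against 3.84) and Nalcn in replicates 2 and 3. Over the union of all exons Unc79 was 1.04 times Nalcn in FOXR2 replicate 2, so the order of that library turns with the length used. Unc80 was below both in every library.

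The ratio to the pore gene was also taken per library. For Fam155a it restates the difference that chose the gene, set over Nalcn levels that overlap between the titles. Per kilobase, the Fam155a level was 4.32, 1.63 and 1.35 times that of Nalcn over the FOXR2-titled libraries, and 0.0264, 0.00947 and 0.0494 times over the Control-titled ones. The ratio of Unc80 to Nalcn hardly moved, at 0.0892 to 0.127 in FOXR2-titled tumors and 0.0778 to 0.126 in Control-titled tumors. The ratio of Unc79 to Nalcn covered 0.474 to 1.64 in FOXR2-titled tumors and 0.288 to 0.581 in Control-titled tumors, with overlap. Over the union of all annotated exons, the Unc80 ratio was 0.152 to 0.248 over the 6 libraries, and over the coding sequence alone the Fam155a ratio was 2.39 to 7.66 in FOXR2-titled tumors, so these ratios hold only for the length used.

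**Figure D2:**
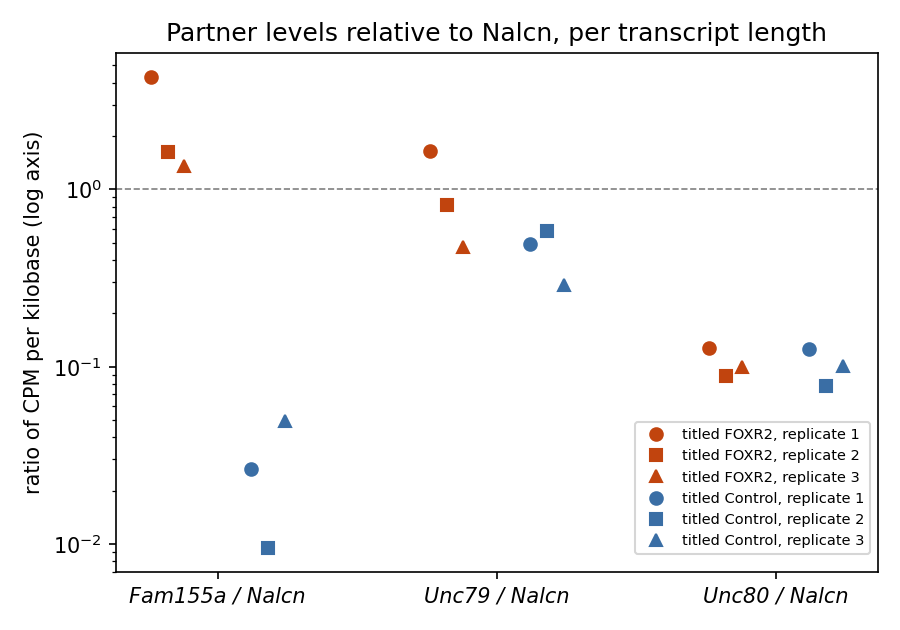
Ratio of Fam155a, Unc79 and Unc80 to Nalcn in each library, from CPM per kilobase of the longest coding transcript, on a log axis; points are libraries and the dashed line marks equal levels. Unc80 to Nalcn stays between 0.0778 and 0.127 in all 6 libraries, whereas Fam155a to Nalcn is 1.35 to 4.32 in FOXR2-titled tumors and 0.00947 to 0.0494 in Control-titled tumors.

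Across the 6 libraries Nalcn and Unc80 had alike profiles. Likeness was measured as the root mean square difference of log2(CPM + 0.5) after each gene was centred on its own mean, over 12096 named genes averaging 1 CPM or more. Unc80 differed from Nalcn by 0.245 on this scale, and 56 other genes were nearer to Nalcn. From Unc79, Nalcn differed by 0.765 and Unc80 by 0.720. Fam155a differed from Unc79, Unc80 and Nalcn by 2.31, 2.72 and 2.78. These distances are a description over libraries that share their group structure and carry no test.

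None of the partners was among the 6 genes whose profile was most like that of Fam155a. Unc79, Unc80 and Nalcn stood at places 921, 5090 and 6055 among the 12096 genes. The measure keeps the size of each gene's change, so distance from Fam155a largely restates the fold change that chose it. B3gnt5, a glycosyltransferase of glycolipid synthesis, was the nearest at a difference of 0.546, with 92.1, 92.9 and 94.4 CPM over the FOXR2-titled libraries, against 3.66, 2.74 and 4.01 CPM over the Control-titled ones. The synaptic adhesion gene Sdk1 differed by 0.619, with 25.7, 9.55 and 17.0 CPM over the FOXR2-titled libraries, against 0.120, 0.179 and 0 CPM over the Control-titled ones. Islr, Palm2 and the forkhead gene Foxf1 were also among the 6 nearest, at 0.704, 0.739 and 0.784. The search picked these genes for their likeness, so their group differences are not further results.

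The promoters of the partners are shown because the centred profiles of Nalcn and Unc80 were nearer to each other than to that of Unc79. They are the 250 bases before the start in RefSeq (GRCm38.p6), read on the gene's strand, and 3 of the 4 genes had an entry. Capitals mark GGAA or its complement TTCC, the core of ETS factor sites, which the series title names. The Nalcn promoter lies at chr14:123627145-123627394 (minus strand), that of Unc80 at chr1:66467684-66467933 (plus strand) and that of Unc79 at chr12:102948609-102948858 (plus strand).
Nalcn: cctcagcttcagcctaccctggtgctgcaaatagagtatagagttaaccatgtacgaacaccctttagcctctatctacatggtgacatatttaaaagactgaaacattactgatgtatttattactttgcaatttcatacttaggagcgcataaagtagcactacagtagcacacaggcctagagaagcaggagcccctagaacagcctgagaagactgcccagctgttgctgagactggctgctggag
Unc80: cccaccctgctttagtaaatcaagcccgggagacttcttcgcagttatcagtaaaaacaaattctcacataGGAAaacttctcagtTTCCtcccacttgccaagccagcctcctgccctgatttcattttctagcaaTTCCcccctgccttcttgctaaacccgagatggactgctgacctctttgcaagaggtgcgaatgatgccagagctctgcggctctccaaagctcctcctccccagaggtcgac
Unc79: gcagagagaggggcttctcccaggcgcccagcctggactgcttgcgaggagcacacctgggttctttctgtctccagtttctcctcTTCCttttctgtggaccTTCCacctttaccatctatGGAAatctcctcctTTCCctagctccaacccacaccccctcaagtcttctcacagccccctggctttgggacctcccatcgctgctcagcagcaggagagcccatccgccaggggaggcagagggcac

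Searched on both strands, GGAA had 0 matches in Nalcn, 3 in Unc80 and 4 in Unc79, and 93.4% of 27025 RefSeq promoters of the same length hold it. The longer ETS motif CCGGAA, which contains GGAA, had 0 matches in all 3 and is held by 12.2% of promoters. The forkhead motif TGTTTNC also had 0 matches in all 3, against 17.9% of promoters. GC content was 45.2% for Nalcn, 51.2% for Unc80 and 59.6% for Unc79. These matches describe the letters in the window and say nothing on binding.

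The 4 genes lie on 4 different chromosomes in RefSeq, so none neighbours another. The nearest tested genes on each side were read as a description of the surroundings, up to 3 a side. Fam155a stands between Arglu1, a splicing-related gene, and Lig4, the DNA ligase of end joining. Their log2 fold changes were 0.28 ± 0.29 and -0.14 ± 0.23, and that of Abhd13, the next one, was -0.11 ± 0.21 (edgeR adjusted p = 0.588, 0.756 and 0.786). Myo16, an unconventional myosin gene and the third on the Lig4 side, was called higher. It held 122, 123 and 125 CPM over the FOXR2-titled libraries, against 37.0, 29.8 and 17.7 CPM over the Control-titled ones. Its log2 fold change was 2.13 ± 0.28 (edgeR adjusted p = 0.0298). Without each library in turn its adjusted p was 0.0446 to 0.145, and it stayed under 0.05 in the fit without FOXR2 replicate 2. With animal sex as a covariate it was 0.0940.

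Myo16 was the 1 gene edgeR called among 22 tested neighbours of the complex genes, where it called 2.29% of all tested genes. DESeq2, which called 14.0% of all tested genes, also called Tmtc4 higher (adjusted p = 0.0125) and Tmem251 lower (adjusted p = 0.00550). Efnb2, an ephrin ligand gene on the other side of Fam155a, was fitted at 1.09 ± 0.47 in log2 (adjusted p = 0.202). Beside Nalcn, Tmtc4 had 1.38 ± 0.37 and the channel-regulating growth factor homologue Fgf14 had 2.26 ± 0.87 (adjusted p = 0.0862 and 0.166). Beside Unc79, Tmem251 had -1.18 ± 0.28 and Ubr7 -0.70 ± 0.22 (adjusted p = 0.0685 and 0.117), on the opposite side of 0 from Unc79. Map2, the dendrite microtubule gene next to Unc80, had 0.25 ± 0.21 (adjusted p = 0.510).

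**Figure D3:**
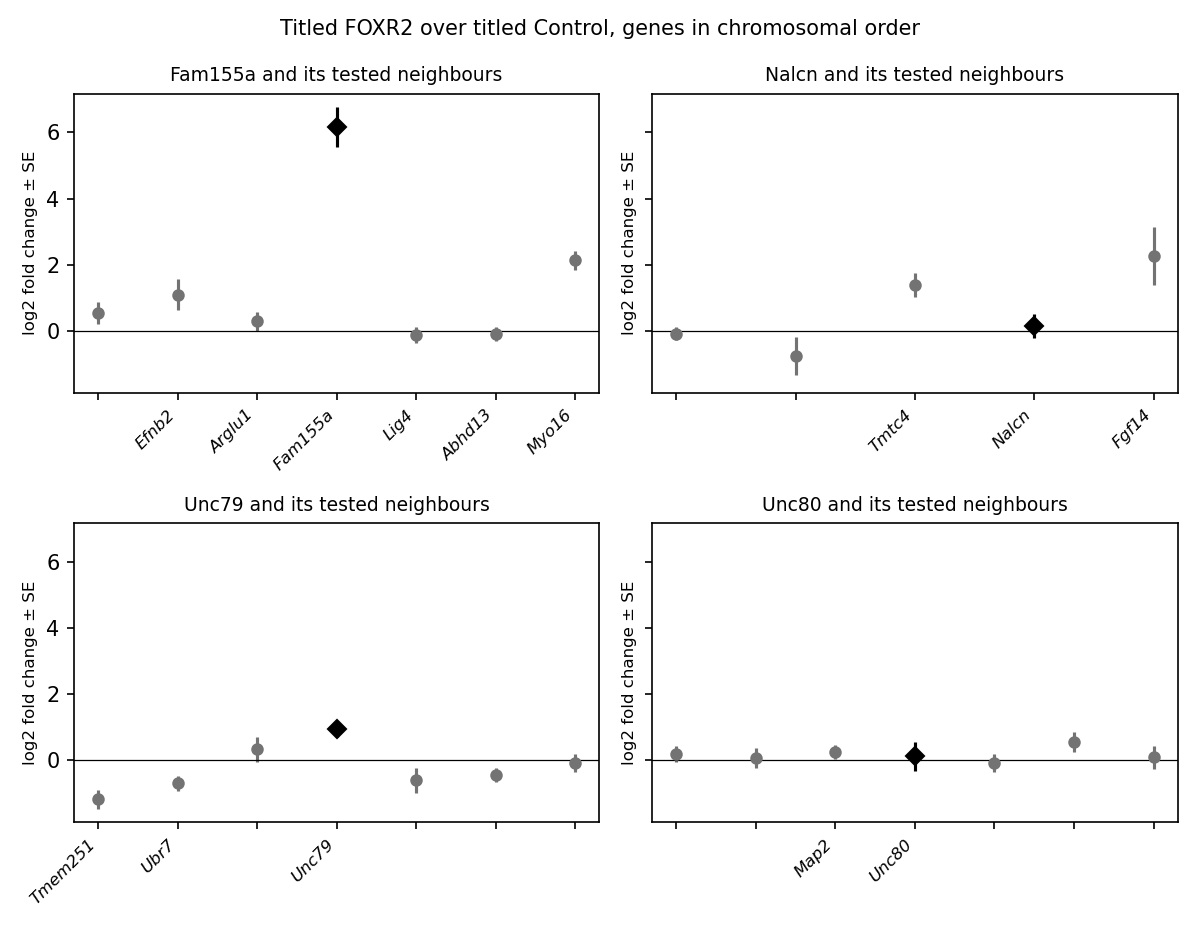
Fitted log2 fold change, FOXR2-titled over Control-titled libraries, of each complex gene (black diamond) and its nearest tested neighbours (grey points) in chromosomal order without scale, with the genes discussed here named; bars are standard errors from 3 libraries a group. Lig4 and Abhd13, next to Fam155a, lie at -0.14 and -0.11, and Myo16 at 2.13.

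Other genes that set or tune the leak current were read from lists. EdgeR called 2.29% of all tested genes and DESeq2 14.0%, and 24.9% had an unadjusted p under 0.05. Of 8 receptors and kinases reported to act on NALCN, 5 were tested, and 1 was called higher and 0 lower (median log2 fold change 0.75, against 0.011 for all tested genes). The called gene was Gabbr2, a GABA-B receptor subunit. Through this receptor GABA is reported to reduce the NALCN current in mouse midbrain neurons. Gabbr2 held 28.6, 33.3 and 27.6 CPM over the FOXR2-titled libraries, against 6.90, 6.79 and 9.82 CPM over the Control-titled ones. Its log2 fold change was 1.93 ± 0.25 (edgeR adjusted p = 0.0298). Without each library in turn its adjusted p was 0.0447 to 0.145, the lowest being without FOXR2 replicate 2, and with animal sex as a covariate it was 0.0940. Gabbr1, the other subunit of that receptor, had 0.75 ± 0.49 (adjusted p = 0.392), the muscarinic receptor gene Chrm3 had 1.32 ± 0.86 (adjusted p = 0.386), and the kinase gene Src had 0.49 ± 0.22 (adjusted p = 0.224). The kinase gene Fyn had 0.045 ± 0.22 (adjusted p = 0.919).

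Among the relatives of the pore, 2 of 5 tested alpha subunits of voltage-gated sodium channels were called higher and 0 lower (limma-voom called 0 and DESeq2 the same number, 2). Scn3a, the channel of embryonic brain, held 32.2, 12.2 and 22.3 CPM over the FOXR2-titled libraries, against 4.08, 4.47 and 3.66 CPM over the Control-titled ones (log2 fold change 2.45 ± 0.39, edgeR adjusted p = 0.0396). Without each library in turn the adjusted p was 0.0329 to 0.165 for Scn3a, the lowest being without FOXR2 replicate 2, and with animal sex as a covariate it was 0.122. Scn2a and Scn8a, the main channels of mature neurons, had -0.37 ± 0.29 and -0.23 ± 0.29 (adjusted p = 0.481 and 0.662), and Scn1a had 2.04 ± 0.84 (adjusted p = 0.190).

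Of 8 tested calcium channel pore genes edgeR called 0, with 4 at an unadjusted p under 0.05. DESeq2 called 3 (Cacna1a, Cacna1g and Cacna1h) and limma-voom 0. All 8 had fitted values above 0, the median being 1.04 in log2, against 0.011 for all tested genes. Cacna1h, a low-threshold T-type channel, averaged 116 ± 24.5 CPM in FOXR2-titled tumors and 49.0 ± 10.6 CPM in Control-titled tumors (SD, n = 3 each; edgeR adjusted p = 0.0505), and was called with total-count scaling (adjusted p = 0.0499). Cacna1g, also T-type, averaged 20.2 ± 11.2 CPM in FOXR2-titled tumors and 3.24 ± 1.46 CPM in Control-titled tumors (SD, n = 3 each; edgeR adjusted p = 0.0575), and was called without FOXR2 replicate 2 (adjusted p = 0.0446). Cacna1e had 3.81 ± 0.87 (edgeR adjusted p = 0.0653), from 3, 0 and 1 counts over the Control-titled libraries. It passed the filter on low counts only through the FOXR2-titled libraries (23, 14 and 17 counts). Its place among the 8 above 0 is thus no further support.

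The potassium leak side showed values of the same sign and no call. Of 14 genes of the K2P leak channels 6 were tested and 4 had no count in any library. EdgeR called 0 of the 6 (1 at an unadjusted p under 0.05; DESeq2 called 1, Kcnk13, and limma-voom 0), with a median log2 fold change of 0.87. Kcnk13 averaged 16.7 ± 11.5 CPM in FOXR2-titled tumors and 1.63 ± 1.14 CPM in Control-titled tumors (SD, n = 3 each; edgeR adjusted p = 0.0675), Kcnk3 had 1.36 ± 0.60 and Kcnk2 1.37 ± 0.65 (adjusted p = 0.214 and 0.239). Of 3 tested HCN channels, which carry another resting cation current, edgeR called 0 (1 at an unadjusted p under 0.05; DESeq2 called 1, Hcn2, and limma-voom 0). Hcn2 had 0.78 ± 0.23 and Hcn3 -0.090 ± 0.43 (adjusted p = 0.108 and 0.917). Of 6 tested subunits of the sodium-potassium pump, which returns the leaked ions, edgeR called 0 (1 at an unadjusted p under 0.05; DESeq2 called 1, Atp1b1, and limma-voom 0), with a median of 0.22. Atp1b1 had 1.43 ± 0.40 (adjusted p = 0.0952).

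**Figure D4:**
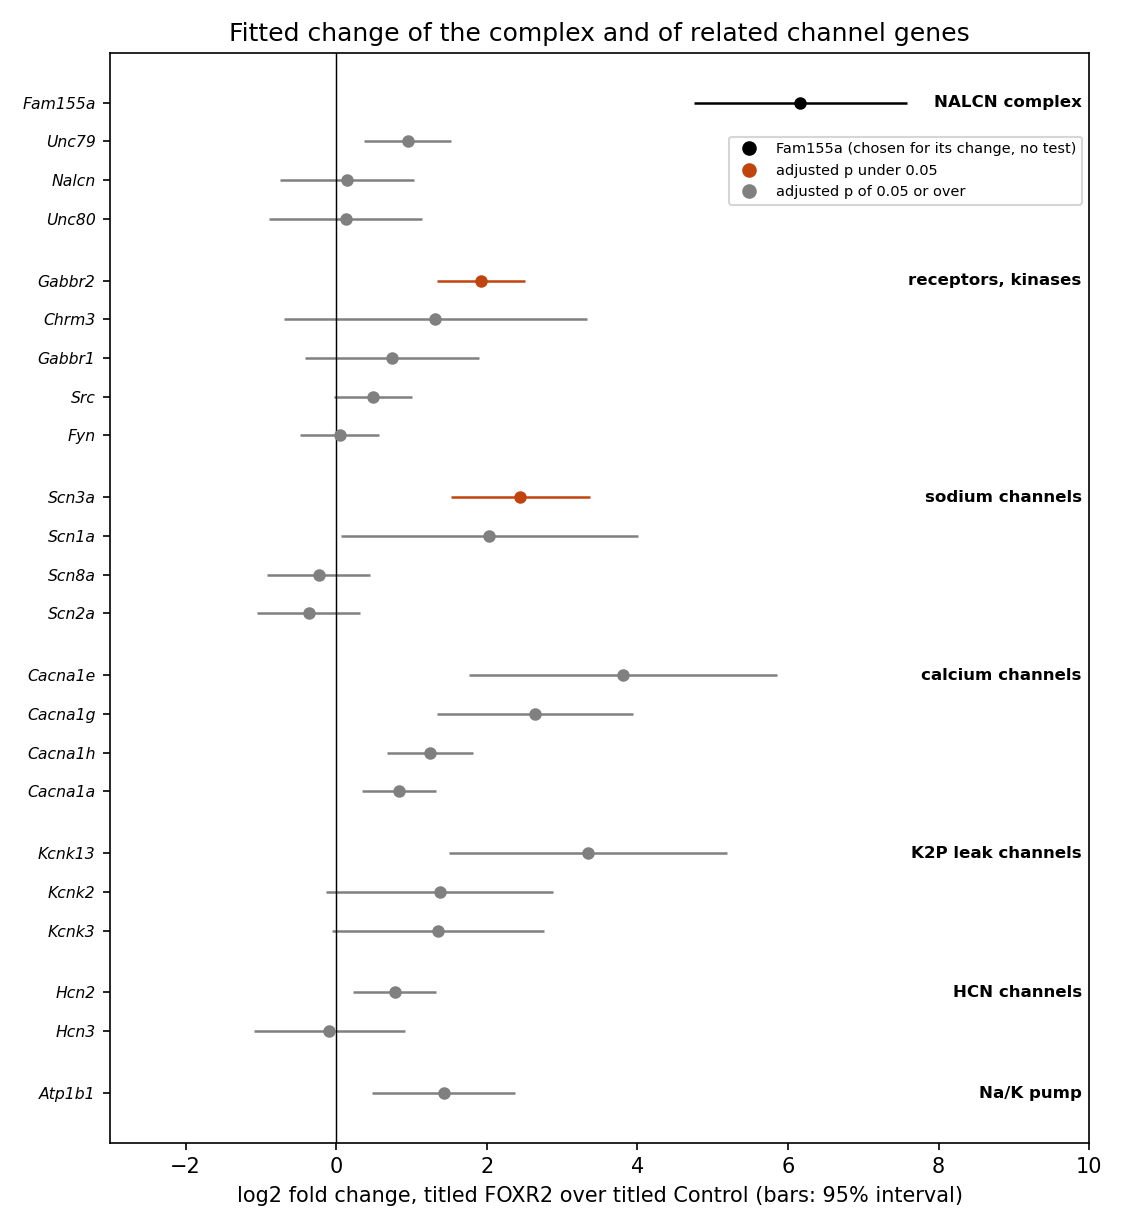
Fitted log2 fold change, FOXR2-titled over Control-titled libraries, of the complex and of the genes named here from 6 related lists; bars are 95% intervals from the edgeR fit with 3 libraries a group. Fam155a lies at 6.17, Unc79 at 0.95, Nalcn at 0.14 and Unc80 at 0.13, and Gabbr2 and Scn3a are the called genes shown from the related lists.

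Fam155a has a paralog, Fam155b, listed in the table under its RefSeq name Tmem28. It had 1, 3 and 0 counts over the FOXR2-titled libraries, against 0, 1 and 1 over the Control-titled ones, at or below 3 counts in every library. No level can be compared at this depth.

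Markers of other cell types are set beside Fam155a here. Of all tested genes 2.29% were called by edgeR, 14.0% by DESeq2 and 24.9% had an unadjusted p under 0.05. The median log2 fold change of all tested genes was 0.011. The 13 immature neuron markers summed to 1202, 1125 and 1216 CPM over the FOXR2-titled libraries, against 462, 476 and 693 CPM over the Control-titled ones. Of 10 tested, 10 were fitted above 0 and edgeR called 0 (6 at an unadjusted p under 0.05; DESeq2 called 5 and limma-voom 0). The 15 mature neuron markers summed to 987, 951 and 1158 CPM over the FOXR2-titled libraries, against 842, 805 and 825 CPM over the Control-titled ones. Of these sums Map2 alone held 560, 622 and 805 CPM over the FOXR2-titled libraries, against 612, 598 and 462 CPM over the Control-titled ones. Of 13 markers tested, 8 were fitted above 0, 2 were called higher (Syt1 and Syn1) and 0 lower. Rbfox3, among the 8, had 3, 6 and 22 counts over the Control-titled libraries. It passed the filter mainly through its FOXR2-titled counts (157, 50 and 30). DESeq2 called 5 higher and 1 lower, and limma-voom 0. The neurofilament genes Nefl and Nefm, named after their values were seen, lay lower with groups apart at -1.06 ± 0.51 and -1.73 ± 0.51 (edgeR adjusted p = 0.250 and 0.102), and Nefm was the one DESeq2 called lower (adjusted p = 0.00790). Without each library in turn the adjusted p was 0.0472 to 0.170 for Syt1, the lowest being without FOXR2 replicate 2, and 0.0594 to 0.168 for Syn1. With animal sex as a covariate it was 0.116 for Syt1 and 0.133 for Syn1. In bulk tumors, more cells of a type and more RNA per cell cannot be told apart, and the part of these marker differences in the Fam155a values was not tested. Astrocyte markers summed to 904, 658 and 1874 CPM over the FOXR2-titled libraries, against 881, 653 and 772 CPM over the Control-titled ones. The sum was highest in FOXR2 replicate 3, the library highest in Nalcn and Unc80, where Aldoc alone gave 1150 CPM. Of the other markers, Slc1a2 and Slc1a3 were also highest in that library, Aqp4, Gja1 and Aldh1l1 were lowest there, and the rest lay between. The part of these markers in the Nalcn and Unc80 levels was not tested. Of 9 tested, 1 was called higher, the glutamate transporter gene Slc1a2, and 0 lower. Its adjusted p was 0.0453 to 0.158 without each library in turn, the lowest being without FOXR2 replicate 2, and 0.115 with animal sex as a covariate. Aldh1l1, an enzyme gene that marks astrocytes, lay lower with groups apart at -1.71 ± 0.62 (edgeR adjusted p = 0.150). It was called lower by DESeq2 (adjusted p = 0.0277) and by edgeR without FOXR2 replicate 2 (-2.79, adjusted p = 0.0353). Mature oligodendrocyte markers summed to 220, 5175 and 1434 CPM over the FOXR2-titled libraries, against 1693, 285 and 3888 CPM over the Control-titled ones, with 0 of 6 called (0 at an unadjusted p under 0.05, by edgeR, and 0 by DESeq2). Endothelial and pericyte markers summed to at most 15.9 CPM and T cell markers to at most 3.86 CPM in any library. The markers of microglia and macrophages bear on 1 library alone, and without it, FOXR2 replicate 2, the Fam155a log2 fold change was 6.37 and that of Unc79 was 1.04 (adjusted p = 0.0979).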

How the data were processed

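Tumor poly(A) RNA of 6 tumors was sequenced as single reads from strand-keeping libraries, per the labels' protocols. The submitters' processing notes list TopHat and DESeq2 with no version, and hg19 as the build. That build is human and the symbols are mouse, so no coordinates of the counted genes are given. The authors deposited whole-number read counts per gene symbol. Which counter, annotation and strand setting made them is not given in the sources used here. From these counts, genes were kept by filterByExpr (count minimum 10) and fitted with edgeR 4.0.16 in R 4.3.3 with TMM factors, no covariate and a prior count of 0.125. The quasi-likelihood F test was adjusted by Benjamini-Hochberg over all 13101 genes tested and called under 0.05. SE is the absolute log2 fold change over the square root of F, and intervals use the test's degrees of freedom. Members and lists were chosen with earlier results of these data known. Text names list members called, or else the 3 smallest adjusted p, and some genes that this rule takes are not reported here. Alternatives were limma-voom (limma 3.58.1), DESeq2 1.42.0, scaling by RLE or by total counts, all genes unfiltered, the replicate block, animal sex, and each library left out. Floors of 3 counts and Poisson intervals cover counting error only. The partner ratio tests and length alternatives were added after seeing the data.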

Additional observations from a re-analysis of the deposited data

How the results depend on the processing

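The log2 fold change of Fam155a was 5.74 to 6.89 with each library left out (the highest without Control replicate 3). It was above 0 in 13 of 13 alternatives. These refit the libraries in which the difference chose the gene, so the count is no further support. The partners kept their side of the threshold in all alternatives but 1, in which DESeq2 called Unc79 (0.97). With each library left out, Nalcn ranged from -0.39 to 0.45, Unc79 from 0.75 to 1.07 and Unc80 from -0.37 to 0.35. Nalcn also turned sign with limma-voom (-0.0044), and Unc80 with animal sex as a covariate (-0.075). These sign changes all lie within 1 standard error of 0 except that of Nalcn without FOXR2 replicate 3 (-0.39 ± 0.26), and the cause was not tested. Of all genes, edgeR called 300, against 1837 with DESeq2, 0 with the replicate block, 7 with animal sex as a covariate, and 1 to 205 with each library left out. Same-numbered libraries had correlations of -0.016, -0.24 and -0.010 between their deviations from the group means. Differently numbered pairs had -0.198 to 0.249, so these values cannot show whether same-numbered libraries share more than a number. With the replicate block, Unc79 had 0.98 (adjusted p = 0.152) and Fam155a 6.33, and Gabbr2, Scn3a, Syt1, Syn1, Slc1a2 and Myo16 all lost their calls (adjusted p = 0.114 to 0.143). At this depth the Fam155a level in the libraries titled Control rests on 3 to 20 counts.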

Other observations

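The genes nearest to each partner in profile over the 6 libraries were of other kinds. Nearest to Nalcn was Myo10, an unconventional myosin gene, at 70.8, 108 and 197 CPM over the FOXR2-titled libraries, against 127, 112 and 145 CPM over the Control-titled ones, a root mean square difference of 0.093 on the log2 scale. The cyclin gene Ccnd3 was among the 3 nearest at 0.132, beside Snhg10 at 0.123. Nearest to Unc80 was Zhx1 (0.121), with 62.7, 58.0 and 118 CPM over the FOXR2-titled libraries, against 94.7, 51.4 and 67.0 CPM over the Control-titled ones, followed by Stk36 (0.172) and the ciliary regulator Rfx2 (0.178). Nearest to Unc79 was Tanc2, a postsynaptic scaffold gene, at 91.2, 66.9 and 83.8 CPM over the FOXR2-titled libraries, against 45.6, 49.2 and 31.9 CPM over the Control-titled ones (0.077), with Mfhas1 (0.110) and Phka1 (0.112) next. These are descriptions over 6 libraries and carry no test.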
